A study of Mus musculus with 16 samples.

Results

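Inflammasomes are protein complexes of innate immune cells, in which a sensor of infection or damage joins an adaptor and activates the protease caspase-1. Caspase-1 then cuts the precursors of the cytokines IL-1β and IL-18 and the pore protein gasdermin D, whose cut form opens the cell membrane in the cell death called pyroptosis. In the liver, Kupffer cells, the resident macrophages, are a main site of this pathway, and hepatocytes carry several of its parts.

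The genes described here were chosen by name, as the sensors Nlrp3 and Aim2, the adaptor Pycard, the proteases Casp1 and Casp4, the pore gene Gsdmd, the cytokine genes Il1b and Il18, and Il1rn, which encodes the antagonist of the IL-1 receptor. They were 9 of the 19096 genes with a symbol on the array, measured by 11 probes, and Pycard and Il1rn had more than 1 probe. Livers of male mice were compared to ask how a null mutation of Gadd45β alters the response to phenobarbital (PB), a promoter of liver tumours. All mice received N-diethylnitrosamine (DEN, 90 mg/kg), a liver carcinogen, at 5 weeks of age, and RNA came from liver outside tumours at 57 weeks. The 4 groups of 4 mice were wild type (WT) C57BL/6J mice given DEN alone (WT DEN) or DEN and then PB at 0.5 g/l in drinking water from 7 weeks (WT DEN + PB), and Gadd45β null mice given the same treatments (KO DEN and KO DEN + PB). No group was free of DEN, so each comparison is between livers exposed to the carcinogen. The KO mice carry the Gadd45βtm1Flv allele in all cells. Their stock is named as a mix of C57BL/6 and another strain, although the study also describes a C57BL/6J background, so strain and genotype cannot be told apart.

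Each mouse gave 1 Agilent array of 1 colour, and a value here is the log2 signal of a probe minus the 75th percentile of its array, so that 0 is the signal at that percentile. A probe counts as detected on an array where the scanner software set its signal well above background, and the share of spots so marked was 58.3% to 67.7% per array. Gadd45b was detected in 8 of 8 WT mice and in 0 of 8 KO mice. Hepatocyte genes matched the labelled tissue by their level: the 8 hepatocyte markers with a probe had a summed signal of 1378 to 2189 times the 75th percentile. All 8 were bright enough to test, but so were 12 of 12 Kupffer cell and macrophage markers, so passing that filter does not single out hepatocytes. WT DEN replicate 3 stood apart within its group: it had the highest WT DEN value for 7 of the 9 inflammasome genes, as it did for 46.0% of 13303 genes tested, and its summed signal of 12 Kupffer cell and macrophage markers was 247 times the 75th percentile against 73.8 to 99.7 on the other WT DEN arrays. Values without it stand beside some of the results that it moved.

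The promoter letters of 4 members are printed, those of the neighbouring protease genes Casp1 and Casp4 and of the cytokine genes Il1b and Il18, whose precursors caspase-1 cuts. Each run is the 250 bases before the gene's start, 5′ to 3′ on the gene's strand, from the RefSeq promoter table of GRCm38.p6. Capitals mark matches on either strand to GAGGAA (a core of sites for the myeloid factor PU.1), GGGA and CC with any 4 bases between them (the NF-kB site) or TATAAA (the TATA box), and in these runs no match overlapped another motif's match.
Casp1, chr9:5298267-5298516, plus strand: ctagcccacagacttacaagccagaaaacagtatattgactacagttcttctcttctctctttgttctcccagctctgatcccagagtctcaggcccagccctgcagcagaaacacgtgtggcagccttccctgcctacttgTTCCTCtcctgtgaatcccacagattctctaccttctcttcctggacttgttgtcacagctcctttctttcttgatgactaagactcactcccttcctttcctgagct
Casp4, chr9:5308599-5308848, plus strand: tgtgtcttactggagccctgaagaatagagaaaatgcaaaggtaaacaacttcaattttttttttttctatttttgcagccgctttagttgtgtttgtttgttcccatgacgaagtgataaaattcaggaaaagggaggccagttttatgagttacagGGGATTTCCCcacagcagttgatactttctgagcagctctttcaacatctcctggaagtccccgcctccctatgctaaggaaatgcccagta
Il1b, chr2:129371140-129371389, minus strand: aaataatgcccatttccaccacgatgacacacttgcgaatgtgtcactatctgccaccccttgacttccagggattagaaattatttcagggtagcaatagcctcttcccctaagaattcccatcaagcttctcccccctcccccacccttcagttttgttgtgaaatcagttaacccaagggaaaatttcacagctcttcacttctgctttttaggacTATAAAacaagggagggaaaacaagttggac
Il18, chr9:50554450-50554699, plus strand: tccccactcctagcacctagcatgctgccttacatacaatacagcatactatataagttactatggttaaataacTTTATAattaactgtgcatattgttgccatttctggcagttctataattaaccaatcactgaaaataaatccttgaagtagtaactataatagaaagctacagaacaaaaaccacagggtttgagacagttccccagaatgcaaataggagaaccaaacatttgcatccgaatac
The Casp1 window held 1 GAGGAA match, on the opposite strand at -108 to -103, a pattern that 23.3% of 32851 windows of this length also hold. The Casp4 window held 1 NF-kB match at -92 to -83 that reads as the site on both strands, against 17.6% of all windows. Il1b held TATAAA at -31 to -26 and Il18 held it on the opposite strand at -175 to -170, against 12.4% of all windows. None of the 12 windows found for 8 of the 9 genes held GAAA and GAAA with any 2 bases between them, the pattern of interferon regulatory factors, which 2.98% of all windows hold. A match describes letters and not binding.

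The sensors came first in the pathway and were dim. Nlrp3, the sensor of membrane damage and crystals, was detected in 2 of 4 WT DEN, 2 of 4 WT DEN + PB, 3 of 4 KO DEN and 1 of 4 KO DEN + PB livers, with values from -6.85 to -4.60. Aim2, the sensor of DNA in the cytosol, was detected in WT DEN replicate 3 (-2.82), in WT DEN + PB replicate 4 (-4.83) and in 0 of 8 KO livers. Neither gene was detected on all 4 arrays of a group, so neither was tested and no fold change is given. The plot of all 9 genes by array shows the arrays without detection as open points.

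**Figure D1:**
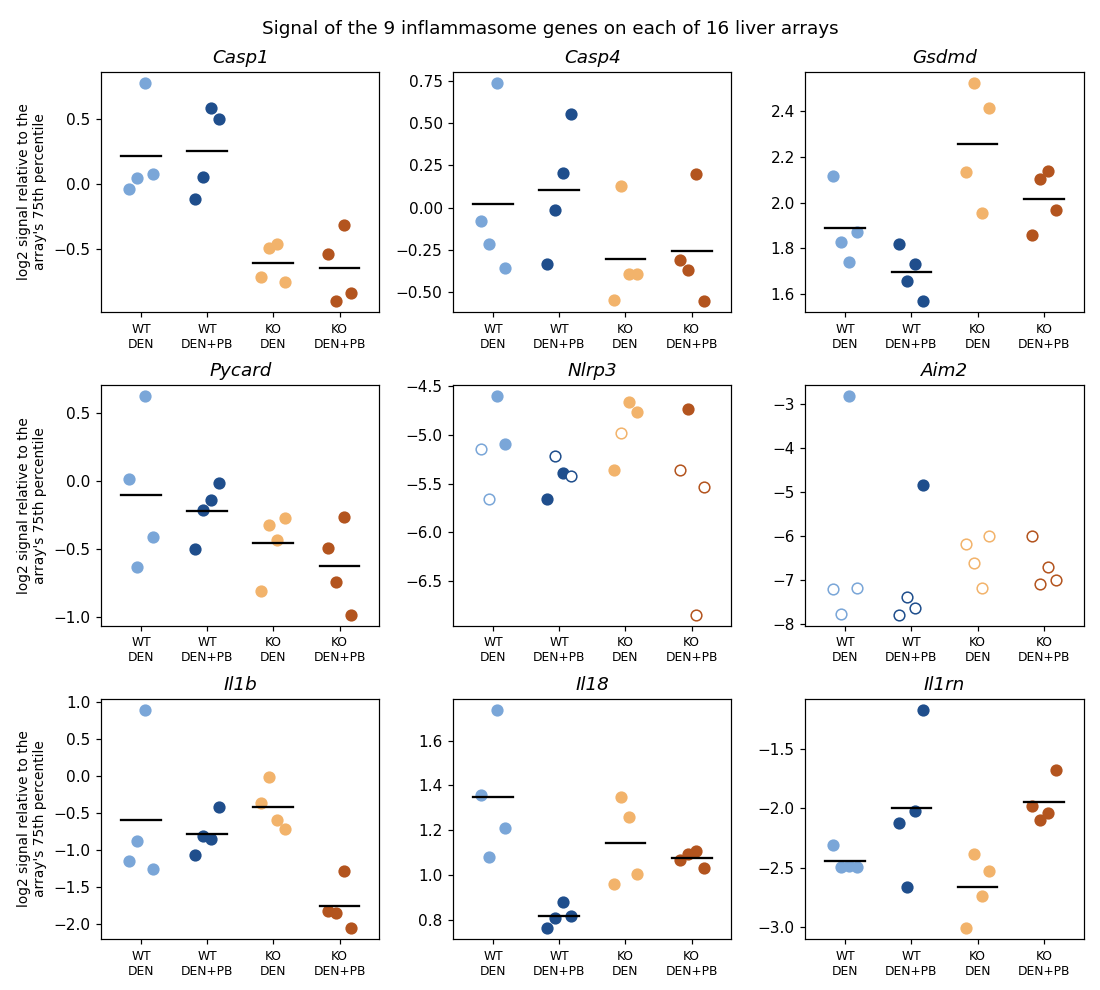
Log2 signal minus that of the array's 75th percentile (y axis, its own range in each panel) for the 9 genes on each of 16 arrays, by group. Each point is 1 mouse, filled where the probe was detected and open where it was not, and bars are means of 4 arrays, drawn for the 7 genes tested. The 8 WT points of Casp1 lie above the 8 KO points.

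Casp1, the protease that matures IL-1β and IL-18, was the 1 member called between the genotypes. Its values were -0.04, 0.04, 0.77 and 0.07 on the WT DEN arrays (replicates 1 to 4) and -0.11, 0.05, 0.58 and 0.50 under WT DEN + PB. On the KO arrays they were -0.71, -0.49, -0.46 and -0.75 under DEN and -0.54, -0.90, -0.32 and -0.84 under DEN + PB. Every KO array was below every WT array, with or without PB, and WT DEN replicate 3 was the highest of all. Over both treatments Casp1 was lower in KO by a log2 difference of -0.86 ± 0.15 (SE of the fit), or 1.81-fold lower (limma adjusted p = 0.00119 over all probes tested). The exact permutation test over the 8 KO and 8 WT arrays within treatments gave p = 0.000408, the smallest that its 4900 assignments allow. It was called, meaning an adjusted p under 0.05 and at least 1.5-fold, in 25 of 25 alternatives, with adjusted p from 0.000499 to 0.0210. Without WT DEN replicate 3 the difference was -0.77 with an adjusted p of 0.00164.

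Within each treatment the Casp1 difference was of like size. Under DEN + PB it was -0.90 ± 0.21 (1.87-fold lower, limma adjusted p = 0.0144), and the call was lost with normexp background correction (adjusted p = 0.236) and without WT DEN + PB replicate 3 (0.0509) or 4 (0.0522) or KO DEN + PB replicate 2 (0.0541). Under DEN alone it was -0.82 ± 0.21 (1.76-fold lower, limma adjusted p = 0.0440), a call lost in 18 of 26 alternatives, 12 of them the removal of 1 of the 16 arrays, and at -0.63 (adjusted p = 0.133) without WT DEN replicate 3. PB itself left little mark on Casp1, with changes of 0.04 ± 0.21 in WT (0.23 ± 0.19 without WT DEN replicate 3) and -0.04 ± 0.21 in KO, and the difference between these effects was 0.09 ± 0.29 (limma adjusted p = 0.993). Slide by slide, Casp1 was lower in KO on 2 of 2 slides that allow the DEN comparison (-1.48 to -0.45) and on 4 of 4 slides for DEN + PB (-1.04 to -0.78). Every KO array was below every WT array, so these signs were fixed in advance and give no further support.

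Of the 7 members tested, 1 was called in KO against WT over both treatments, where 8.8% of all 13303 genes tested were called. Casp1 was again the 1 member called under DEN (background 2.76%) and under DEN + PB (background 7.6%). Groups without overlap were found for 1 of 7 members over both treatments (background 3.16%), 1 under DEN (background 11%) and 4 under DEN + PB (background 17.3%), namely Casp1, Gsdmd, Il1b and Il18. The median difference of the 7 members over both treatments was -0.34, beside -0.00290 for all genes tested, and it was -0.15 without WT DEN replicate 3.

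Macrophage markers moved the same way as Casp1. Of 12 Kupffer cell and macrophage markers, 11 were called lower in KO over both treatments (6.08% of all genes were), with a median of -1.20, and the exception was Marco, a scavenger receptor, at -0.21. Adgre1, which encodes the macrophage antigen F4/80, differed by -1.95 ± 0.23, Vsig4, a complement receptor of Kupffer cells, by -2.02 ± 0.21, and Cd68, a lysosomal glycoprotein of macrophages, by -1.56 ± 0.14. The summed signal of the 12 genes ran from 73.8 to 247 in WT DEN, 89.0 to 103 in WT DEN + PB, 48.8 to 67.5 in KO DEN and 34.3 to 68.4 in KO DEN + PB, so the genotypes did not overlap. Each of the 12 was detected on at least 1 array of each group. Under DEN 6 of the 12 were called lower, and 4 without WT DEN replicate 3, while over both treatments 11 were called with or without that array. Of the hepatocyte markers, 0 of 8 were called (limma), with a median of 0.10 over both treatments. That median was -0.04 under DEN and 0.28 under DEN + PB, where 7 of 8 were higher in KO and 0 were called. Other cell lists also held genes called lower in KO: 3 of 6 endothelial markers (median -0.70), 2 of 6 stellate and fibroblast markers (Lrat -1.13 and Reln -0.70, median -0.41), 2 of 7 monocyte and neutrophil markers (Lyz2 -1.65 and S100a8 -0.68, 1 without WT DEN replicate 3), 2 of 9 lymphocyte and NK cell markers, 1 of 5 biliary and 1 of 3 pancreatic acinar markers. Under DEN alone, 0 of the monocyte and neutrophil, lymphocyte and NK cell, stellate and fibroblast, or biliary markers were called. Under DEN + PB 4 of 7, 2 of 9, 3 of 6 and 3 of 5 were called lower, in that order (background 7.6% in either direction). S100a8 had like means under DEN (-0.70 in WT and -0.72 in KO) and differed by -1.34 under DEN + PB. In bulk liver, fewer cells of a type and less RNA per cell cannot be told apart, and the part of macrophage number in the Casp1 difference was not tested.

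**Figure D2:**
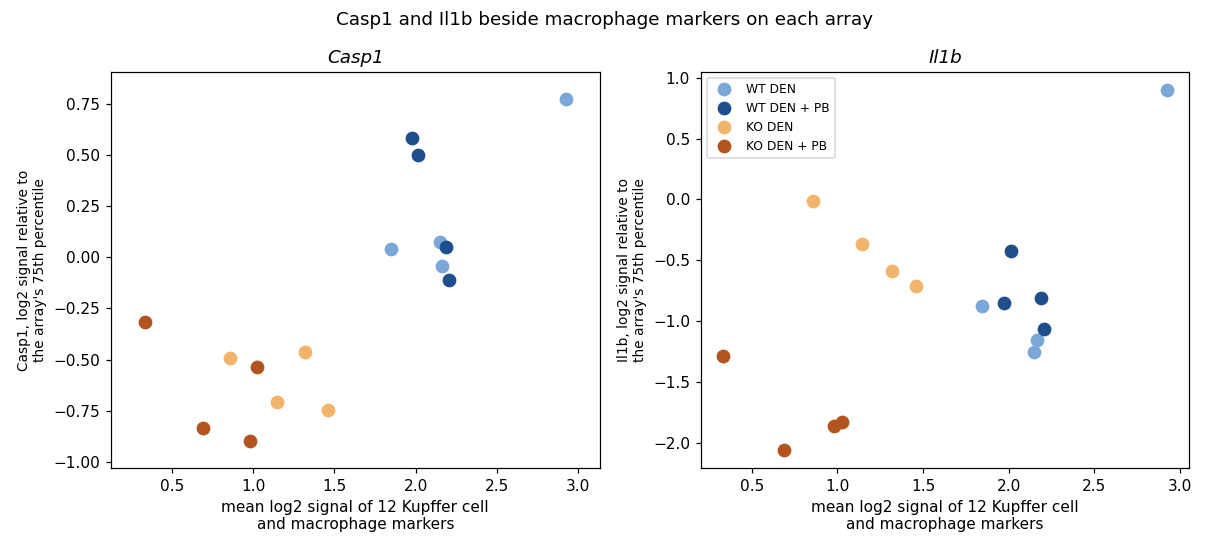
Casp1 (left) and Il1b (right) on the y axes, as log2 signal minus the array's 75th percentile, against the mean log2 signal of 12 Kupffer cell and macrophage markers on the x axes, with 1 point for each of 16 arrays coloured by group. For Casp1 the KO and WT arrays form separate clouds, low and high on both axes. For Il1b the KO DEN arrays lie as high as or above most WT arrays although their markers are lower, and WT DEN replicate 3 is at the top right of both panels.

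Casp4 encodes caspase-11, the protease that senses bacterial lipopolysaccharide inside the cell, and lies next to Casp1 on chromosome 9. Its values were -0.08, -0.21, 0.74 and -0.36 in WT DEN, -0.34, -0.01, 0.20 and 0.56 in WT DEN + PB, -0.55, 0.13, -0.39 and -0.39 in KO DEN, and -0.31, -0.37, 0.20 and -0.55 in KO DEN + PB. The genotypes overlapped widely. The difference of -0.34 ± 0.18 over both treatments was not past the threshold (limma adjusted p = 0.197), and it was -0.22 (adjusted p = 0.359) without WT DEN replicate 3. The Casp1 and Casp4 differences were then compared on each array, a test chosen after their values were seen. The log2 difference Casp1 minus Casp4 changed by -0.52 ± 0.10 in KO against WT (1.43-fold), with no overlap of the 8 and 8 arrays (exact permutation p = 0.000408, the smallest of 4900 assignments, and 0.00245 after adjustment over 6 such comparisons). That adjustment does not cover the choice of this pair after its values were seen. The change in Casp1 minus Casp4 was -0.49 under DEN and -0.54 under DEN + PB, each with an exact permutation p of 0.0286, the smallest that 4 against 4 arrays allow. The lack of overlap of the 8 and 8 arrays fixed these p-values, so they give no further support within each treatment.

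The adaptor gene Pycard encodes ASC, which links sensors to caspase-1. Its brighter probe read 0.02, -0.64, 0.63 and -0.41 in WT DEN, -0.50, -0.21, -0.14 and -0.01 in WT DEN + PB, -0.81, -0.32, -0.43 and -0.27 in KO DEN, and -0.50, -0.75, -0.26 and -0.98 in KO DEN + PB. For this probe KO arrays lay toward the lower end with much overlap. The difference over both treatments was -0.38 ± 0.17 (limma adjusted p = 0.131) and that of the second probe -0.45 ± 0.17 (adjusted p = 0.0802). Under DEN + PB the second probe's KO and WT arrays did not overlap (-0.48 ± 0.24, exact permutation p = 0.0286, limma adjusted p = 0.252). Of all genes at their brightest probe, 17.3% did not overlap there. Without WT DEN replicate 3 the brighter probe differed by -0.26 (limma adjusted p = 0.239). The probes thus gave the same direction, and neither was called.

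Gsdmd, the gene of the pore protein gasdermin D, had higher values in KO. Its values were 2.12, 1.83, 1.74 and 1.87 in WT DEN, 1.82, 1.66, 1.73 and 1.57 in WT DEN + PB, 2.13, 2.52, 1.95 and 2.41 in KO DEN, and 1.86, 2.10, 2.14 and 1.97 in KO DEN + PB. Under DEN + PB each KO array was above each WT array, and under DEN the groups overlapped. Over both treatments Gsdmd was 1.27-fold higher in KO (0.34 ± 0.10, limma adjusted p = 0.0329, exact permutation p = 0.00204), which is under the 1.5-fold limit of a call. Its adjusted p rose above 0.05 without any 1 of 9 of the 16 arrays, up to 0.0671, and reached 0.172 with normexp, 0.110 with slide as a block and 0.577 in the unscaled series table, where the difference was 0.20. This probe has 10 spots on each array, with a median coefficient of variation of 4.00% between them. Its direction under DEN + PB turned to -0.03 in the deposited series table without scaling, where the median of all genes was itself at -0.31. Gsdmd was thus opposite in direction to Casp1, and Casp1 and Gsdmd were the 2 of 7 members with an adjusted p under 0.05 for genotype over both treatments at any fold (background 16.2%).

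**Figure D3:**
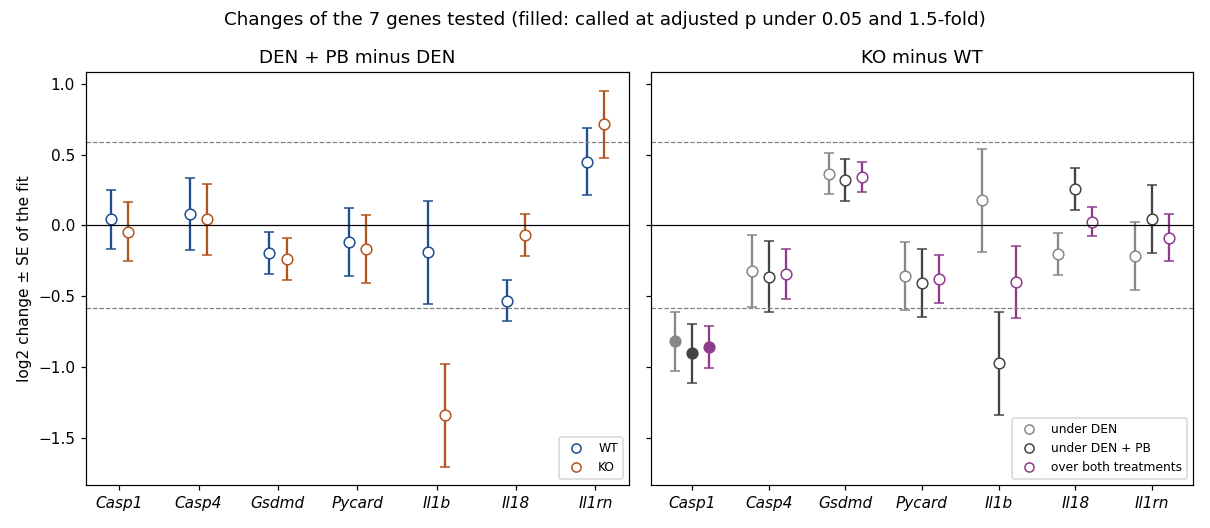
Log2 changes with the SE of the fit (y axis) for the 7 genes tested, for DEN + PB minus DEN in each genotype (left) and KO minus WT under each treatment and over both (right). Filled points were called, and dashed lines mark 1.5-fold. Casp1 is the 1 gene with filled points, Gsdmd lies above 0 in KO against WT, and Il1b has the largest fitted fall with PB in KO (-1.34).

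The cytokine genes differed in how they went with PB. Il1b encodes the precursor of IL-1β, a cytokine of fever and inflammation, and is switched on by priming signals in myeloid cells. Its values were -1.16, -0.87, 0.90 and -1.26 in WT DEN and -1.06, -0.81, -0.85 and -0.42 in WT DEN + PB, where the groups overlapped and the change with PB was -0.19, or 0.31 without WT DEN replicate 3, neither called. In KO they were -0.36, -0.01, -0.59 and -0.71 under DEN and -1.83, -1.86, -1.29 and -2.06 under DEN + PB. All KO DEN + PB arrays were below all 12 other arrays, and KO DEN arrays were above all WT DEN arrays but replicate 3. The change with PB in KO was -1.34 ± 0.36 (2.53-fold lower, exact permutation p = 0.0286, the smallest possible), with a limma adjusted p of 0.0777 over all probes.

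Whether Il1b was called depended on 1 array that is not part of this comparison. All groups share an estimate of spread in the fit, and without WT DEN replicate 3 the same change had an adjusted p of 0.00209, and 0.0210 with only the 8 arrays compared. KO against WT under DEN + PB was -0.97 ± 0.36 (limma adjusted p = 0.120), and 0.00739 without that array. These comparisons share the KO DEN + PB arrays. The difference between the PB effects, WT minus KO, was 1.15 ± 0.51 (unadjusted p = 0.0393 in limma, adjusted p = 0.796, and 0.106 without WT DEN replicate 3), so a different PB effect in the genotypes was not shown. The neutrophil genes S100a8 (-1.30 ± 0.31) and S100a9 (-1.42 ± 0.27) were also called lower with PB in KO, as 2 of 7 monocyte and neutrophil markers tested (background 0.872%), and Il1a, the other IL-1 agonist, fell by 1.36 ± 0.28 (adjusted p = 0.0181). Il1a was detected in 2 of 4 KO DEN + PB livers, and this call was lost in 7 of 26 alternatives. It was lost in both normexp settings, with no filter on dim probes, with no moderation and with only the 8 arrays compared. It was also lost without KO DEN replicate 1 (limma adjusted p = 0.0674) or KO DEN + PB replicate 4 (0.0519). The summed signal of the monocyte and neutrophil list overlapped, with 9.94 to 15.5 in KO DEN and 7.59 to 14.2 in KO DEN + PB. Its mean log2 signal did not overlap, with -2.44 to -2.07 in KO DEN and -3.25 to -2.75 in KO DEN + PB. Of the 7 genes tested, 6 were lower with PB in KO, with a median of -0.77. The part of these cells in the Il1b change was not tested.

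Il18, the other substrate of caspase-1, has a store of precursor in many resting cells. Its values were 1.36, 1.08, 1.74 and 1.21 in WT DEN and 0.76, 0.81, 0.88 and 0.82 in WT DEN + PB, so that each WT DEN array was above each WT DEN + PB array. In KO they were 0.96, 1.35, 1.26 and 1.01 under DEN and 1.06, 1.09, 1.11 and 1.03 under DEN + PB, which overlapped. The change with PB was -0.53 ± 0.15 in WT (1.44-fold lower, limma adjusted p = 0.174, exact permutation p = 0.0286) and -0.07 ± 0.15 in KO. Without WT DEN replicate 3 the change in WT was -0.40 (limma adjusted p = 0.370). The difference between the PB effects in WT and KO was -0.46 ± 0.21 with an adjusted p of 0.796, and -0.33 (adjusted p = 0.844) without that array. Il18 and Il1b thus had their lowest group means in different genotypes, both under DEN + PB, and neither change was called. Il18 had an SD of 0.05 in WT DEN + PB and 0.03 in KO DEN + PB, beside 0.28 and 0.19 in the groups without PB.

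Il1rn encodes the antagonist that blocks the IL-1 receptor. Its brighter probe read -2.31, -2.49, -2.49 and -2.50 in WT DEN, -2.12, -2.66, -2.03 and -1.17 in WT DEN + PB, -3.01, -2.38, -2.74 and -2.52 in KO DEN, and -1.98, -2.10, -2.04 and -1.68 in KO DEN + PB. In KO the groups did not overlap, and in WT 3 of 4 PB arrays were above all DEN arrays while replicate 2 was below them. The change with PB was 0.71 ± 0.24 in KO (1.64-fold, limma adjusted p = 0.173) and 0.58 ± 0.17 over both genotypes (adjusted p = 0.0990). It was called over both genotypes without WT DEN + PB replicate 2 (adjusted p = 0.0250) and in KO without WT DEN + PB replicate 4 (adjusted p = 0.0479). The second probe was detected on 2 of 16 arrays and gives no check.

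Antagonist and agonist had fitted changes in opposite directions with PB in KO, and neither was called. The difference between Il1rn and Il1b on each array, chosen after the values were seen, rose with PB by 2.05 ± 0.29 in KO (4.15-fold). Each gene alone had KO groups without overlap, in opposite directions, so this difference could not overlap either. Its exact permutation p of 0.0286 was thus fixed at the smallest possible value and gives no further support (0.0343 adjusted over 6 comparisons). In WT the difference rose by 0.64 ± 0.57 (exact permutation p = 0.371, adjusted 0.371), and 0.13 ± 0.27 without WT DEN replicate 3. Over both genotypes, with the same KO arrays included, it rose by 1.35 ± 0.32 (exact permutation p = 0.00531, adjusted 0.0159), and 1.09 ± 0.20 without that array (exact permutation p = 0.0102, unadjusted). The KO part of this test was fixed as above, so the p over both genotypes gives no independent support. The adjustment does not cover the choice of the pair after its values were seen. The difference between the genotypes was not tested here.

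Across the PB contrasts, 0 of 7 members were called in WT (background 0.737%), in KO (2.13%), over both genotypes (2.13%) or for the difference between genotypes (0% of genes) in limma. At an unadjusted p under 0.05 there were 1, 2, 3 and 2 members in that order. Groups did not overlap for 1 of 7 members in WT (Il18, background 5.16%) and for 2 of 7 in KO (Il1b and Il1rn, background 8.6%), and for 0 of 7 over both genotypes (background 0.849%).

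The genes around the pathway were read against the 6.08% of all genes that were called lower in KO over both treatments. Among 12 tested sensors and partners, 1 was called lower, near that share: P2rx7, the ATP-gated channel that triggers the Nlrp3 inflammasome, at -0.68 ± 0.16 (limma adjusted p = 0.00754). Nlrp12 had a larger fitted difference (-2.42 ± 0.86) that was not called (adjusted p = 0.0634), and it was detected in 2 of 4 KO DEN + PB livers, a group that ran from -5.86 to 1.36. It is named because its point stands apart in the plot of the lists. The median of the 12 genes was -0.02, or 0.04 without WT DEN replicate 3.

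In the IL-1 family, 2 of 12 tested genes were called lower in KO over both treatments (6.08% of all genes), 0 were called higher, and the median was 0.03. Il18bp encodes the soluble protein that binds and neutralises IL-18. Its values ran from 0.77 to 1.48 in WT DEN, 0.74 to 1.05 in WT DEN + PB, 0.04 to 0.34 in KO DEN and -0.09 to 0.38 in KO DEN + PB, so no KO array reached a WT array. The difference was -0.79 ± 0.12 (1.73-fold lower, limma adjusted p = 0.000478), and it was called in 25 of 25 alternatives. Il1a was the other, at -0.81 ± 0.20 (adjusted p = 0.0120), and it came from DEN + PB (-1.56 ± 0.28) with -0.05 under DEN. The receptor gene Il1r1 was at 0.52 ± 0.18 (adjusted p = 0.0601) and the signalling adaptor Myd88 at 0.12 ± 0.08, neither called.

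Of 12 tested priming receptors and NF-kB genes, 3 were called lower in KO over both treatments (6.08% of all genes). Tlr2, a receptor for bacterial lipoproteins, differed by -0.95 ± 0.19 (limma adjusted p = 0.00354) and was called in 25 of 25 alternatives. Tlr4, the lipopolysaccharide receptor, differed by -0.86 ± 0.18 (adjusted p = 0.00502) and lost its call in 2 of 25, both normexp settings. Tnfaip3, a brake on NF-kB signalling, differed by -0.68 ± 0.16 (adjusted p = 0.00848) and lost its call in 3 of 25, among them the fit without WT DEN replicate 3, where it was -0.58. The median of the 12 was -0.23, and without WT DEN replicate 3 it was -0.14 with 2 called.

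Of 14 other caspase and cell death genes, 2 were called lower in KO over both treatments (6.08% of all genes), and 1 without WT DEN replicate 3. Ripk3, the kinase of necroptosis, differed by -0.82 ± 0.16 (limma adjusted p = 0.00293, lost in 1 of 25 alternatives). Casp12, which lies in the same gene cluster as Casp1 and Casp4, differed by -0.59 ± 0.15 (adjusted p = 0.0139), at the fold limit, and lost its call in 13 of 25, 11 of them the removal of 1 array (-0.51 without WT DEN replicate 3). The Casp12 difference was -0.90 under DEN + PB, where it was called. Under DEN the Casp12 means were -2.06 in WT and -2.33 in KO, without a call.

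Guanylate binding proteins are interferon-induced GTPases that open bacterial membranes to inflammasome sensors. All 11 tested genes of that list and their regulators had positive changes with PB in KO, with a median of 0.48 beside 0.01 for all genes, and 2 were called (background for higher calls 1.26%). Gbp6 ran from -0.92 to -0.62 in KO DEN and from -0.23 to 0.88 in KO DEN + PB, a change of 1.18 ± 0.27 (2.26-fold, limma adjusted p = 0.0370, lost in 15 of 26 alternatives, 8 of them the removal of 1 array, with up to 0.118 without KO DEN + PB replicate 3). Gbp7 ran from -1.39 to -0.80 and from -0.46 to -0.30, a change of 0.77 ± 0.15 (1.70-fold, adjusted p = 0.0149, lost in 6 of 26, among them the fit without KO DEN replicate 4 at 0.0557). In WT, Gbp6 changed by 0.69 ± 0.27 and Gbp7 by 0.14 ± 0.15, neither called, and 9 of 11 genes had positive changes with a median of 0.15. Over both genotypes all 11 changes with PB were positive (median 0.34), and Gbp6 was the 1 gene called, where 2.13% of all genes were. It rose by 0.93 ± 0.19 (1.91-fold, limma adjusted p = 0.0151), a call lost in 1 of 25 alternatives, normexp background correction. The difference between the PB effects was called for 0 of the 11 genes (0% of all genes). For KO against WT, Gbp2 was called lower under DEN (-0.76 ± 0.20, adjusted p = 0.0494), a call lost in 20 of 26 alternatives, 12 of them the removal of 1 array.

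**Figure D4:**
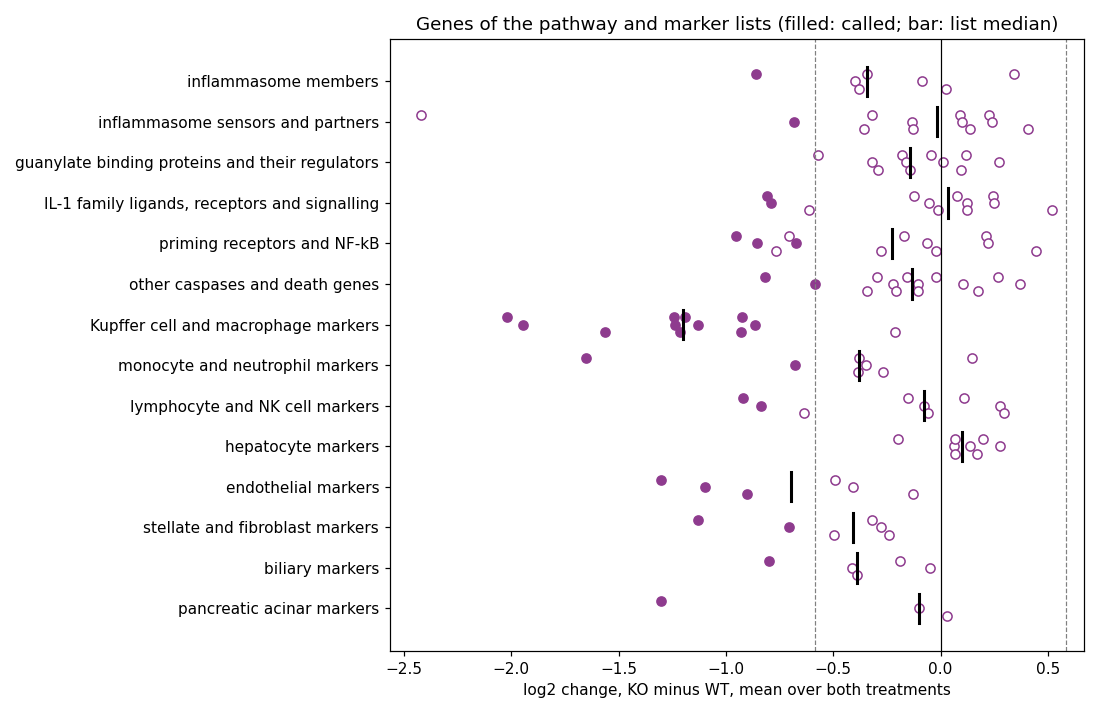
Log2 difference of KO minus WT, mean over both treatments (x axis), for each tested gene of 14 lists (rows). Filled points were called, black bars are list medians and dashed lines mark 1.5-fold. Called genes all lie below 0, and the Kupffer cell and macrophage row (median -1.20) lies furthest to the left while the hepatocyte row is at 0.10.

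The 5 genes outside the list whose signal was most like Casp1 over the 16 arrays were Gpr65 (r = 0.964), Anxa1 (0.947), Cyrib (0.946), Art3 (0.942) and Cast (0.942). The arrays share the genotype difference, so the correlations were also taken after subtracting group means. The most alike genes were then Ifi209 (0.946), Tent2 (0.934), Rnpc3 (0.934), Mfsd14a (0.931) and Fahd1 (0.929). None of the 5 genes was in both sets. Among the members, Casp4 had r = 0.784 over all arrays and 0.855 after subtraction, Pycard 0.765 and 0.753, Il1b 0.532 and 0.781, and Gsdmd -0.678 and -0.320. These are descriptions over 16 arrays that include WT DEN replicate 3, the highest array for Casp1, Casp4, Pycard, Il1b and Il18.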

How the data were processed

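RNA from 16 livers was hybridised to 16 Agilent mouse arrays, 1 per mouse, and groups were taken from the labels. The deposited scanner files (Feature Extraction 12.0.3.1, array design on mm9) hold a processed signal, an intensity on a linear scale that the authors' software corrected for background, with no scaling between arrays. The series table deposited by the authors holds the same intensity for probes with 1 spot (within 5e-04 percent), so its scale is linear and unscaled. The match for probes with more spots is not given here. The normalization the authors applied before their own tests is not given in the sources used here.

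Control and outlier spots were left out, spots of a probe were averaged, and log2 intensity minus the array's 75th percentile was used. Probes were named through RefSeq accessions (assembly GRCm38.p6), and 28223 of 41174 probes had a symbol, and a gene was taken at its brightest probe. Tests covered the 24457 probes that the software marked well above background throughout at least 1 group. Linear models with 4 group means were fitted with limma 3.58.1 in R 4.3.3, p was adjusted by Benjamini-Hochberg over these probes, and a call needed an adjusted p under 0.05 and 1.5-fold, the thresholds in the study's methods. Exact permutation tests were two-sided, and the number of arrays limits precision. The fit was tested on simulated data. Figures used matplotlib 3.10.9.

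The members and all 14 lists were chosen with earlier results of these data known. Genes named outside the members are the called genes of each list, at most 3 per list and contrast, and the 5 most like Casp1, while Marco, Nlrp12, Il1r1 and Myd88 were named after their values were seen. The paired differences, and these and the lists without WT DEN replicate 3, were added after seeing the data. Alternatives were 2 normexp background corrections (offset 50, on median spot signal because no mean signal column was used), quantile normalization, the series table unscaled, no filter on dim probes, slide or replicate number as a block, no moderation, only the arrays compared, the mean of a gene's probes, and each array left out. For promoters, letters were searched on both strands in windows of 250 bases.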

Additional observations from a re-analysis of the deposited data

Results flagged for a closer look

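In 36 groups of 4 arrays (9 genes by 4 groups), 4 held an array whose gap to its nearest neighbour was past Dixon's critical value as a share of the group's range, and chance alone flags about 1 in 20 groups. Casp1 was high on WT DEN replicate 3 (0.77) beside the other WT DEN arrays. Aim2 was high on the same array (-2.82) and on WT DEN + PB replicate 4 (-4.83), the 2 arrays on which it was detected. Il1rn was higher on WT DEN replicate 1 (-2.31) than on the others of that group, which lay within -2.50 and -2.49. The cause was not tested.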

How the results depend on the processing

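Of 40 single-gene results, 22 kept direction and side of the threshold under 10 alternative settings and 16 arrays left out in turn. Casp1 in KO against WT over both treatments kept its call throughout, and the count of 1 member called there did not move. Under DEN the count was 0 with normexp, the unscaled series table, no filter on dim probes, slide as a block, no moderation and only the 8 arrays compared, and 0 to 1 with single arrays left out. Under DEN + PB it was 0 with normexp, 2 with the unscaled table and with only the 8 arrays, and 0 to 2 with arrays left out. For PB in KO it was 1 with the unscaled table and the 8 arrays, and 0 to 1 with arrays left out, as it was for PB over both genotypes (0 to 1).

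Reversed values were all far from any call. With slide as a block they were -0.0072 (Casp1, PB in WT), 0.0070 (Casp1, PB in KO) and -0.014 (Il18, KO against WT over both treatments). The unscaled table, in which the median of all genes moved to -0.29 for PB in KO and -0.31 for KO against WT under DEN + PB, gave -0.25 (Casp4, PB in KO), -0.030 (Gsdmd, KO against WT under DEN + PB), -0.11 and -0.12 (Il18, KO against WT under DEN + PB and over both) and -0.29 (Il1rn, under DEN + PB). Normexp gave -0.020 (Il1b, under DEN) and -0.21 (Il1rn, under DEN + PB), and without outlying backgrounds 0.0024 (Il1rn, over both). The causes were not tested. With single arrays left out, PB in WT ran from -0.066 to 0.23 for Casp1, -0.071 to 0.32 for Casp4, -0.41 to 0.31 for Il1b and -0.29 to 0.13 for Pycard, and PB in KO from -0.15 to 0.040 for Casp1 and -0.11 to 0.18 for Casp4. KO against WT ran from -0.043 to 0.68 for Il1b under DEN, -0.18 to 0.32 for Il1rn under DEN + PB, and over both from -0.20 to 0.051 for Il1rn and -0.018 to 0.092 for Il18.

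Replicate numbers did not pair the arrays: over 24 pairs of the same number the deviations from group means had a median r of 0.014 (-0.21 to 0.36). With the replicate block, the count of members called was 1 in each KO against WT contrast and 0 in the others, and Casp1 over both treatments was -0.86 (limma adjusted p = 0.000592).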
